A study of Bos taurus with 53 samples.

Results

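The genes described here are p53 targets and regulators of apoptosis, a list of 35 symbols looked up in the gene column of a deposited count table from bovine embryos. Of these, 29 were found among the 24596 genes of the table, and BBC3, PMAIP1, BIK, MCL1, CYCS and XIAP were not analysed here. Oocytes were matured in 1 of 3 media, fertilised and cultured in vitro, transferred to recipient cows as blastocysts and flushed on day 14. Each conceptus was scored for shape and dissected into the embryonic disc (ED), which holds the epiblast that forms the embryo proper, and the extra-embryonic tissue (EX), which is mostly trophectoderm. Messenger RNA of each piece was sequenced as its own library, and tissues, media and shapes were compared.

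The CONTROL medium held no fatty acid and no solvent. The BASAL medium held stearic acid at 28 µM, palmitic acid at 23 µM and oleic acid at 21 µM in 0.45% ethanol, and the HIGH PA medium differed from it in holding palmitic acid at 150 µM. All groups shared fertilisation in vitro, culture with serum and transfer, so none is an embryo conceived in a cow. The 53 libraries came from 30 embryos and 7 recipient cows. ED was sequenced from 12 BASAL, 8 HIGH PA and 3 CONTROL embryos, EX from 14 BASAL, 10 HIGH PA and 4 CONTROL embryos, and 2 HIGH PA embryos were sequenced undissected. Both parts were sequenced from 23 embryos. All CONTROL embryos came from cow 813, which also carried BASAL and HIGH PA embryos, and embryos of 1 flush shared a uterus.

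The transcription factor p53 is stabilised by DNA damage and other stress and induces genes that halt the cell cycle, aid repair or start cell death, while MDM2 and MDM4 hold it in check. In the mitochondrial route of apoptosis, BH3-only proteins free the pore formers BAX and BAK1 from guardians such as BCL2L1, and the released factors activate CASP9 on the APAF1 scaffold. In the death receptor route, receptors such as FAS recruit FADD and CASP8, with CFLAR as a brake. Dying cells are a normal feature of the early mammalian embryo.

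Levels are given as scaled CPM, exon reads per 1000000 reads of a library whose size was scaled by the trimmed mean of M values (TMM), for the 51 libraries of 10000 reads or more. ED libraries held 6814 to 6167850 exon reads and EX libraries 9810 to 19533821. The disc of HIGH PA replicate 5, with 119116 reads, had 11 of 29 members at 0. ED BASAL replicate 12 lacked disc transcripts: SOX2, NODAL, PRDM14 and NNAT of the epiblast were at 0 in it. The summed epiblast markers (6 of 9 in the table) spanned 159 to 2159 scaled CPM in ED and 35.4 to 402 in EX. The summed trophectoderm markers (10 of 10) spanned 6018 to 18659 in ED and 16948 to 37755 in EX, so disc libraries held trophectoderm transcripts as well. The largest of these markers in ED by median were KRT8 (5828), KRT18 (5547) and IFNT2 (1272). A mark 2 in the column names, whose meaning the labels do not state, was carried by 7 EX libraries, with a median of 10.8% mitochondrial reads against 4.17% in the other 20 of 10000 reads or more.

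Per kilobase of exon, the scale on which genes can be compared, the effector caspase CASP6 was the most abundant member in both tissues, at a median of 83.0 scaled CPM per kilobase in ED and 93.8 in EX. FADD, BAX, BID, DIABLO and GADD45A came next in both, with ED medians from 47.4 to 63.8 and EX medians from 54.8 to 73.0. The ranges of these neighbours overlapped. At the low end stood BCL2, the founding guardian, with medians of 0 and 0.163, and TNFRSF10D, a decoy receptor for the death ligand TRAIL, with 0.455 and 0.175. BCL2 passed the filter on low counts in no comparison and TNFRSF10D passed it only where both tissues were fitted together, so 28 members were tested between tissues and 27 within each tissue.

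The members differed widely in how much they varied between libraries of a tissue. The SD of log2(scaled CPM + 0.5) was 1.24 in EX and 1.11 in ED for CDKN1A, the cell cycle inhibitor p21. It was 1.27 and 0.67 for GADD45B and 1.19 and 0.86 for GADD45G, which act in growth arrest and DNA repair. The median SD of all genes above 5 scaled CPM was 0.42 in EX and 0.48 in ED, so all 3 lay above that median in both tissues. They were not the most variable in ED, where GADD45A had 1.58, BAK1 1.19, CASP8 1.18, SESN1 1.17, and SESN2 and CASP9 1.12. The ED values include the disc of 119116 reads. In EX the values of GADD45B and GADD45G rested on 1 library, the spherical embryo of 340016 reads, which had 0 reads of both genes: without it their SDs were 0.65 and 0.69, and that of CDKN1A 1.20. DIABLO, a mitochondrial protein that blocks inhibitors of apoptosis, had 0.28 and 0.14, and BCL2L1 had 0.33 and 0.26 in EX and ED, below the median of all genes in both.

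The first comparison set EX against the disc of the same embryo. In EX the receptor FAS was 2.36-fold higher, the GADD45 genes, CDKN1A, BAX, BID and BAD were higher too, and the initiator caspase CASP8 was 3.63-fold lower. At an adjusted p under 0.05 (edgeR's quasi-likelihood test with the embryo as a block, Benjamini-Hochberg over all genes tested), 13 of 28 members differed, 8 of them higher and 5 lower in EX. Over all 12291 genes tested 55.7% differed, 24.2% higher and 31.5% lower. The count among members moved with the fit, to 16 of 28 by DESeq2 and 19 of 28 without the embryos whose EX carried mark 2. The share of all genes called in those fits is not given here, so no lower share among members is drawn. The median log2 fold change was 0.16 for members and -0.02 for all genes. In bulk samples, fewer cells of a type and less RNA per cell cannot be told apart.

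**Figure D1:**
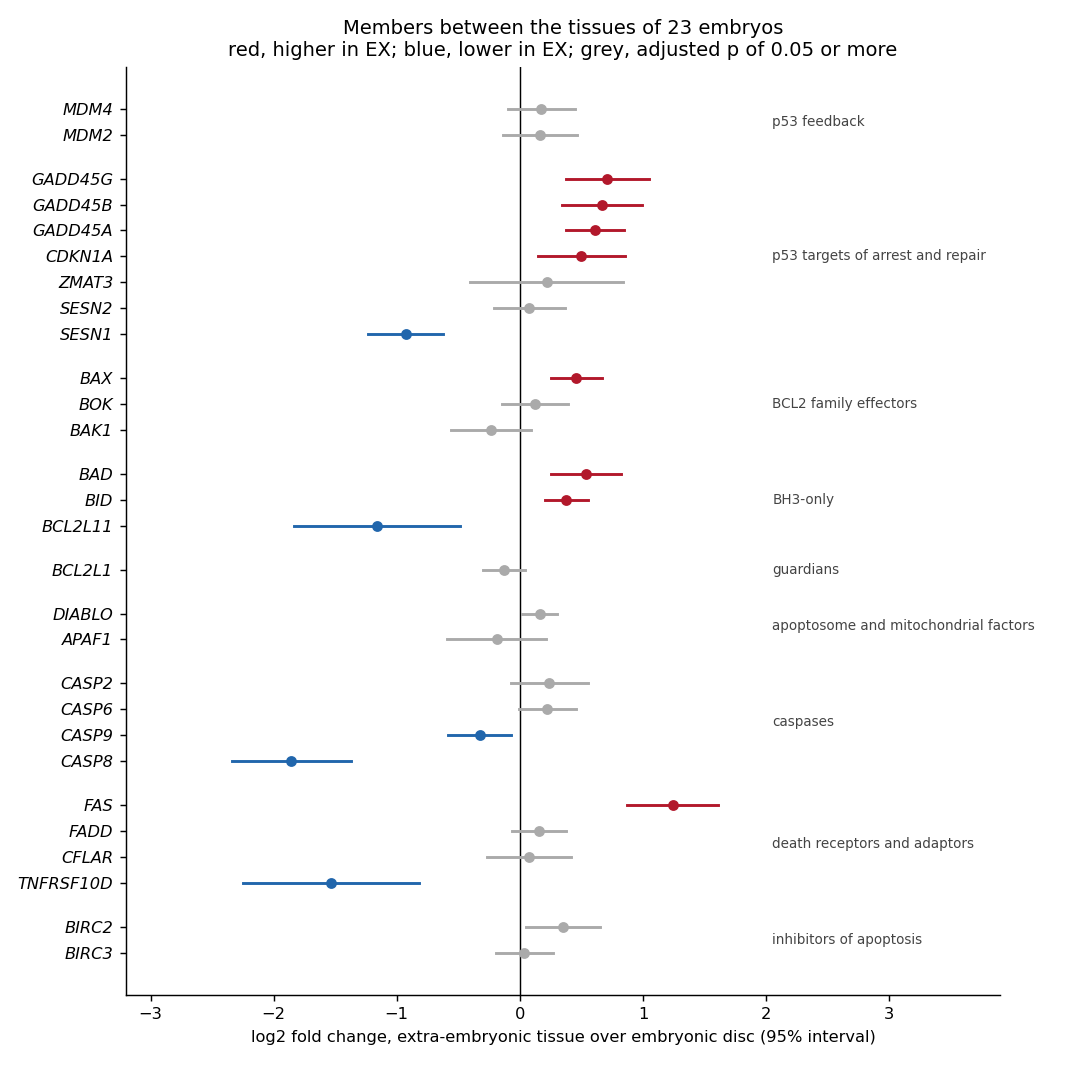
Fitted log2 fold change of EX over ED for the 28 tested members, grouped by role, with 95% intervals; red points are higher in EX, blue lower and grey not past an adjusted p of 0.05. FAS stands farthest to the right at 1.24 and CASP8 farthest to the left at -1.86.

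Of the members grouped here as p53 targets of arrest and repair, 4 of 7 were higher and 1 was lower. GADD45A (chromosome 3, 77972152 to 77975265, build UMD3.1), a stress-induced protein that binds cell cycle and repair factors, had a lowest, median and highest value of 0, 61.0 and 137 scaled CPM in the discs of 22 embryos and 40.8, 94.8 and 152 in their EX. EX was above ED in 20 of 22 embryos while the ranges overlapped, and the disc at 0 was the library of 119116 reads. The log2 fold change was 0.61 (SE 0.12, adjusted p = 9.21e-05). GADD45B had medians of 15.8 and 25.4 and was above ED in 19 of 22 embryos (log2 fold change 0.67, SE 0.17). GADD45G had medians of 9.97 and 16.95 and was above ED in 18 of 22 (0.71, SE 0.17).

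CDKN1A (chromosome 23, 10560498 to 10568780) spanned 2.64 to 129 scaled CPM in ED, with a median of 18.5, and 6.47 to 103 in EX, with a median of 28.7. The ranges overlapped almost wholly, EX was higher in 16 of 22 embryos, and the log2 fold change was 0.50 (SE 0.18, adjusted p = 0.0193). Without the embryo block it was 0.44 with an adjusted p of 0.204 by edgeR. SESN1 (chromosome 9, 41555160 to 41690067), a sestrin that restrains growth signalling under stress, went the other way: it spanned 0 to 18.5 in ED, with a median of 12.2, and 1.88 to 12.0 in EX, with a median of 6.54. EX was lower in 20 of 22 embryos (log2 fold change -0.93, SE 0.16, adjusted p = 9.54e-06), and the disc at 0 was again the library of 119116 reads. The other sestrin SESN2 (0.08, SE 0.15) and ZMAT3, an RNA-binding p53 target (0.22, SE 0.32), did not pass, nor did the p53 inhibitors MDM2 (0.17, SE 0.15, medians of 53.4 and 70.9) and MDM4 (0.17, SE 0.14, medians of 8.15 and 10.8).

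In the BCL2 family, the pore former BAX was higher in EX. BAX (chromosome 18, 55985201 to 55989378) spanned 25.4 to 48.4 scaled CPM in ED, with a median of 38.6, and 34.2 to 109 in EX, with a median of 48.4. EX was higher in 18 of 22 embryos and the ranges overlapped (log2 fold change 0.46, SE 0.10, adjusted p = 0.000434). The other pore formers BAK1 (-0.24, SE 0.17) and BOK (0.12, SE 0.14) did not pass. All 3 BH3-only members tested differed. BID, which carries the signal of CASP8 to mitochondria, was higher in 20 of 22 embryos (0.38, SE 0.09), and so was BAD, which binds BCL2L1 (0.54, SE 0.15). BCL2L11, also called BIM, was lower in 15 of 22 embryos (-1.16, SE 0.34) and scarce, with medians of 1.35 and 0.627. The guardian BCL2L1 had medians of 57.3 and 51.5 and did not pass (-0.13, SE 0.09).

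Among the caspases 2 of 4 were lower in EX and 0 higher. CASP8 (chromosome 2, 90278154 to 90301820) spanned 0.588 to 27.5 scaled CPM in ED, with a median of 3.00, and 0 to 3.86 in EX, with a median of 0.575. EX was lower in 21 of 22 embryos, and the log2 fold change was -1.86 (SE 0.25, adjusted p = 2.12e-07). The disc at 27.5 rested on 4 reads in the library of 119116, and the next disc was at 8.52 from 25 reads. CASP9, the initiator of the mitochondrial route, had medians of 11.9 and 8.14 and was lower in 15 of 22 embryos (-0.33, SE 0.13, adjusted p = 0.0356). CASP2, CASP6, APAF1 and DIABLO did not pass, with log2 fold changes from -0.19 to 0.24.

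On the death receptor side FAS was higher in EX. FAS (chromosome 26, 10714131 to 10748014) spanned 1.86 to 29.8 scaled CPM in ED, with a median of 10.7, and 16.9 to 45.1 in EX, with a median of 25.1. EX was higher in 20 of 22 embryos, with overlapping ranges, and the log2 fold change was 1.24 (SE 0.19, adjusted p = 2.14e-06). TNFRSF10D is counted among the 5 lower members (-1.54, SE 0.36), but it passed the filter on low counts in neither tissue alone, with at most 12 reads in any disc and 6 in any EX library, and its medians were 0.746 and 0.302, so nothing is drawn from it. The adaptor FADD (0.16, SE 0.11), its competitor CFLAR (0.07, SE 0.17) and the ubiquitin ligases BIRC2 (0.35, SE 0.15, adjusted p = 0.0533) and BIRC3 (0.03, SE 0.12), which restrain cell death, did not pass.

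**Figure D2:**
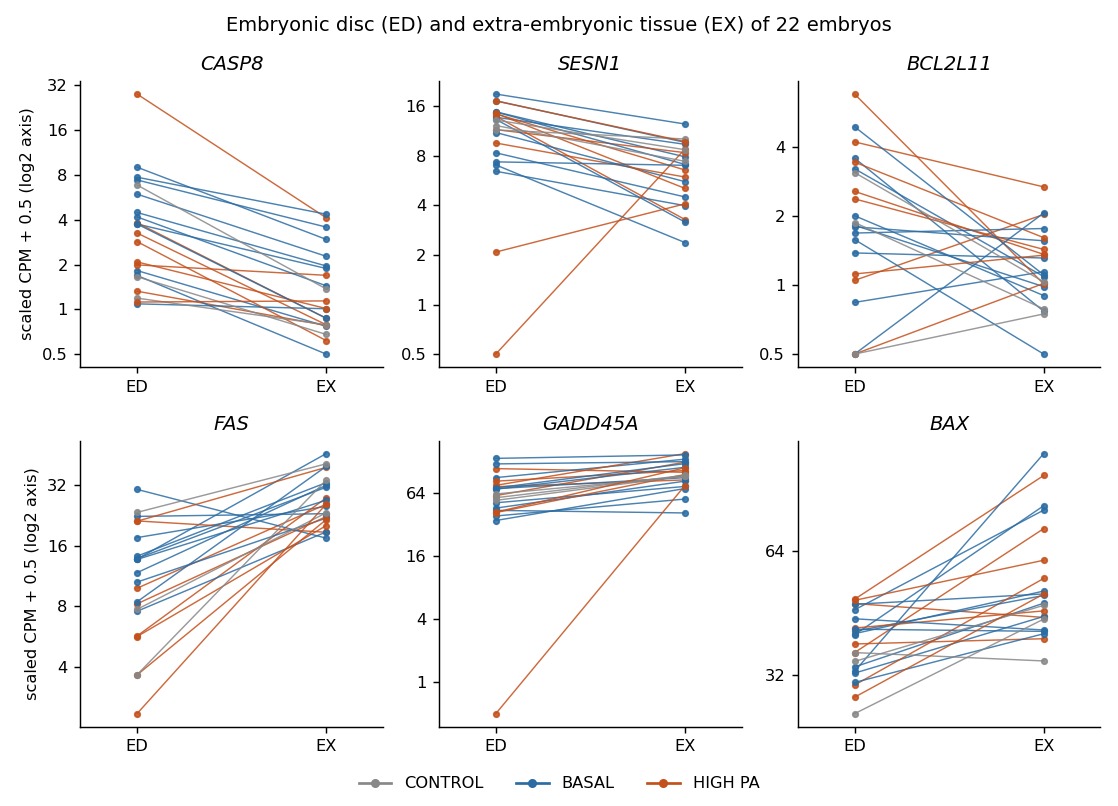
Scaled CPM plus 0.5 on a log2 axis in the disc and EX of 22 embryos, with 1 line per embryo coloured by maturation medium. From ED to EX the line goes down for CASP8 in 21 embryos, for SESN1 in 20 and for BCL2L11 in 15, and up for FAS and GADD45A in 20 and for BAX in 18.

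Other genes of the pathway, from 4 further lists, also went both ways. Over all genes 24.2% were higher and 31.5% lower in EX, and no list was tested against these shares. Of other p53 targets 6 of 23 were higher, with FDXR of lowest p (0.57, SE 0.11), and 6 were lower, with STEAP3 of lowest p (-3.31, SE 0.28). Of other BCL2 relatives 1 of 8 was higher, the channel VDAC2 (0.74, SE 0.10), and 2 were lower, with BNIP3L of lowest p (-0.99, SE 0.13). Of other caspases and factors of mitochondrial release 4 of 8 were higher, with AIFM1 of lowest p (0.62, SE 0.08), and 0 lower. Of other death receptor genes 3 of 8 were higher, with the adaptor TRADD of lowest p (1.06, SE 0.20), and 1 was lower, the TNF receptor TNFRSF1A (-2.83, SE 0.24).

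The tissues were extracted with different kits, and in 1 of 22 embryos both parts shared a sequencing lane, so tissue and kit cannot be told apart. The summed hypoblast markers (8 of 8) spanned 40.5 to 519 scaled CPM in ED and 25.3 to 69.8 in EX, those of streak and mesoderm (5 of 5) 0 to 286 and 0 to 16.5, and those of maternal immune and blood cells (7 of 8) 8.17 to 73.8 and 4.87 to 54.9. The part of these cells in the tissue differences was not tested. With lane as a term beside the embryo, 0 of 28 members and 392 of 12291 genes were called. CASP8 was then at -1.71 (SE 0.97), FAS at 1.16 (SE 0.62), GADD45A at 0.87 (SE 0.40) and BID at -0.05 (SE 0.28). Scaling by library totals in place of TMM moved the median of all genes from -0.02 to -0.26 and the calls over all genes from 2976 higher and 3871 lower to 1179 and 5432; DESeq2's size factors gave 2174 and 4349. On library totals 5 members were higher and 7 lower. The median of the members moved from 0.16 to -0.08. The 13 members called with TMM kept their direction, BID, BAD and CDKN1A were no longer called, and BCL2L1 (-0.37, adjusted p = 0.0011) and BAK1 (-0.47, adjusted p = 0.0275) were.

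The second set of comparisons asked whether the maturation medium left differences in the members by day 14. Between HIGH PA and BASAL discs, 0 of 27 members and 0% of 11040 genes differed by edgeR's test, and DESeq2 called 0 members. By edgeR 3 members and 1004 of 11040 genes had an unadjusted p under 0.05. FAS had a lowest, median and highest value of 1.86, 6.47 and 20.7 scaled CPM in 8 HIGH PA discs and 7.07, 13.2 and 29.8 in 11 BASAL discs. The groups overlapped, with 4 HIGH PA discs below every BASAL disc (log2 fold change -1.005, SE 0.40, adjusted p = 0.501). Of these 4, replicates 1 and 3 rested on 2 and 3 reads of FAS and replicates 4 and 7 on 22 and 14. The HIGH PA disc of 119116 reads, at 20.6, rested on 3. CASP2, a caspase tied to the p53 response, had medians of 17.6 and 21.8 (-0.56, SE 0.21, adjusted p = 0.501), and CFLAR of 7.22 and 4.08 (0.75, SE 0.35, adjusted p = 0.540). CDKN1A had medians of 26.04 and 17.7 (0.86, 95% interval -0.07 to 1.79), and BID of 62.6 and 63.2 (-0.23, SE 0.15).

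Between HIGH PA and BASAL EX, 0 of 27 members and 0% of 11114 genes differed by edgeR's test, and DESeq2 called 0 members. By edgeR 1 member and 551 of 11114 genes had an unadjusted p under 0.05. CASP6, which cleaves nuclear lamins, spanned 58.9 to 222 scaled CPM in 10 HIGH PA libraries, with a median of 134, and 59.6 to 181 in 13 BASAL libraries, with a median of 109. These ranges overlapped almost wholly (log2 fold change 0.44, SE 0.18, adjusted p = 0.966). DIABLO (-0.17, SE 0.10), FAS (-0.28, SE 0.18), CFLAR (0.27, SE 0.23) and CASP8 (-0.63, SE 0.55) had the next lowest p. The 95% interval of the HIGH PA effect in EX ran from -0.44 to 1.23 for CDKN1A, from -0.29 to 0.52 for MDM2 and from -0.22 to 0.53 for BAX; these 3 were chosen after their values were seen, as common readouts of p53. The fits of media in EX left out 1 spherical HIGH PA embryo of unlabelled sex.

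Whether the difference between HIGH PA and BASAL was unequal in the tissues was tested within embryos, as that in EX minus that in ED. It passed edgeR's test for 0 of 28 members and 0% of 12291 genes, and DESeq2 called 0 members. By edgeR 1 member and 377 of 12291 genes had an unadjusted p under 0.05. TNFRSF10D (-2.11, SE 0.86), GADD45A (0.55, SE 0.29), BAD (0.65, SE 0.34), BID (0.33, SE 0.21) and FAS (0.74, SE 0.47) had the lowest p, all with an adjusted p of 1. For CDKN1A the difference lay between -0.83 and 0.86 on the log2 scale (95% interval).

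BASAL and HIGH PA were both compared with the same CONTROL libraries. In ED 0 of 27 members differed from CONTROL in BASAL (0% of 11040 genes called, 3 members at an unadjusted p under 0.05) and 0 of 27 in HIGH PA (0%, 4 members), by edgeR, and DESeq2 called 0 in both. Over all 11040 genes, 379 in BASAL and 465 in HIGH PA had an unadjusted p under 0.05 by edgeR. GADD45G (chromosome 8, 90017452 to 90018996) was at 17.6, 27.7 and 47.6 scaled CPM in the 3 CONTROL discs, at 6.18 to 14.1 in 11 BASAL discs and at 1.86 to 15.1 in 8 HIGH PA discs. CONTROL lay above every other disc, with log2 fold changes of -1.58 (SE 0.39, p = 0.000357 before adjustment by edgeR, 1.00 after) for BASAL and -1.50 (SE 0.38) for HIGH PA. BIRC2 was at 6.07, 6.34 and 6.89 in CONTROL, at 10.7 to 20.8 in BASAL and at 0 to 18.9 in HIGH PA. The CONTROL value of 6.34 rested on 2 reads in a library of 284848. All BASAL discs and 7 of 8 HIGH PA discs lay above CONTROL, and the HIGH PA disc at 0 was the library of 119116 reads (1.24, SE 0.35, and 1.09, SE 0.34). Groups did not overlap for 2 of 27 members in the BASAL comparison, against 0.978% of genes, and for 1 of 27 in the HIGH PA comparison, against 1.11%.

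GADD45B was at 20.5, 22.0 and 63.4 scaled CPM in CONTROL discs, against medians of 15.7 in BASAL and 12.3 in HIGH PA (-1.05, SE 0.37, and -1.14, SE 0.36). The CONTROL disc at 63.4 was also the one highest in GADD45G and held 284848 reads. Without libraries under 300000 reads the GADD45B values were -0.56 and -0.60 and the GADD45G values -1.23 and -1.20. CDKN1A was at 9.51, 11.02 and 15.3 in CONTROL and 12.7 to 129 in HIGH PA, where 7 of 8 discs lay above CONTROL (1.70, SE 0.72, and 2.63, SE 0.86, with cow as a block). Its CONTROL value of 9.51 rested on 3 reads in the library of 284848. BOK had the next lowest p (-0.58, SE 0.33, for BASAL and -0.51, SE 0.33, for HIGH PA), with GADD45A in BASAL (0.56, SE 0.40).

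In EX 0 of 27 members differed from CONTROL in BASAL (0% of 11114 genes called, 3 members at an unadjusted p under 0.05) and 0 of 27 in HIGH PA (0%, 4 members), by edgeR, and DESeq2 called 0 in both. Over all 11114 genes, 375 in BASAL and 1075 in HIGH PA had an unadjusted p under 0.05 by edgeR. CDKN1A was at 6.47, 8.05, 10.2 and 22.8 scaled CPM in the 4 CONTROL libraries, at 7.00 to 103 in 13 BASAL libraries, with a median of 24.3, and at 19.8 to 132 in 10 HIGH PA libraries, with a median of 54.5. The groups overlapped: 7 of 13 BASAL and 9 of 10 HIGH PA libraries lay above every CONTROL library. The log2 fold changes were 1.80 (SE 0.62, adjusted p = 0.885) and 2.20 (SE 0.66, adjusted p = 0.478). Within cow 813, CDKN1A in EX was at 30, 84.6 and 94.7 in the BASAL embryos and 65.2 in the 1 HIGH PA embryo, all above the 4 CONTROL embryos. With cow as a block its log2 fold changes were 2.34 (SE 0.63, adjusted p = 1.00 by edgeR) and 3.19 (SE 0.72, adjusted p = 0.299).

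GADD45G was at 26.98 to 30.2 scaled CPM in CONTROL EX, against medians of 15.2 in BASAL (-0.65, SE 0.32) and 10.3 in HIGH PA (-0.94, SE 0.34, adjusted p = 0.478). In this tissue 1 BASAL and 1 HIGH PA library lay above all CONTROL libraries. Both carried mark 2, which no CONTROL library carried. With mark 2 as a term 0 members were called in either comparison with CONTROL. Within cow 813 GADD45G was at 9.24 to 18.7 in the 3 BASAL embryos and 12.7 in the HIGH PA embryo, and with cow as a block the HIGH PA value was -1.44 (SE 0.38). FADD (0.58, SE 0.26, for BASAL and 0.61, SE 0.27, for HIGH PA), CASP6 (-0.51, SE 0.23) and GADD45B (-0.64, SE 0.32) in BASAL, and BCL2L11 (1.42, SE 0.64) and BAK1 (0.47, SE 0.24) in HIGH PA, completed the members of lowest p. With cow as a block FADD was at 0.20 in both comparisons. Of the further pathway genes, 0 of 59 in ED and 0 of 60 in EX differed between any media. By an unadjusted p under 0.05 from edgeR there were 2 to 8 per comparison in ED and 3 to 10 in EX. Over all genes there were 379 to 1004 of 11040 in ED and 375 to 1075 of 11114 in EX.

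**Figure D3:**
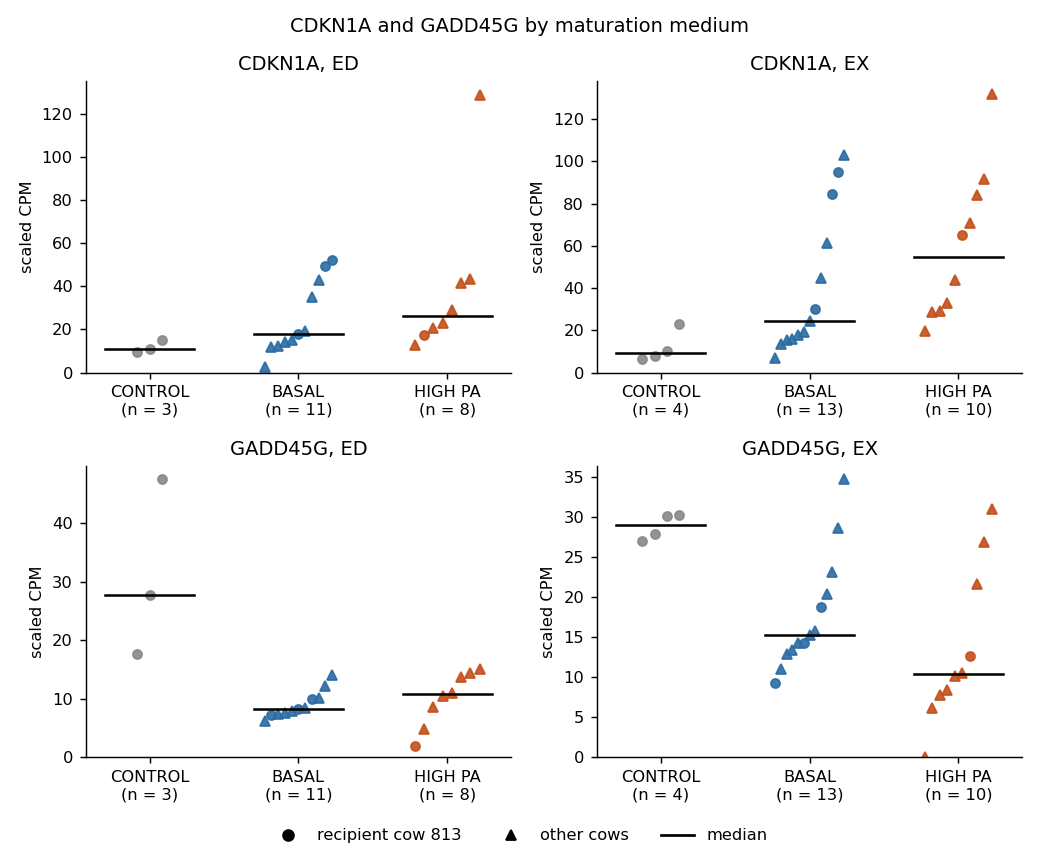
Scaled CPM of CDKN1A and GADD45G in each library by tissue and maturation medium; circles are embryos carried by cow 813, triangles embryos of other cows and lines medians. CDKN1A medians in EX are 9.10 in CONTROL, 24.3 in BASAL and 54.5 in HIGH PA, and GADD45G in ED is higher in each CONTROL disc than in any other disc.

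The third set of comparisons concerned shape, since the bovine conceptus passes from spherical through ovoid to tubular as it elongates. Between 8 ovoid and 15 tubular discs, 0 of 27 members and 0% of 11040 genes differed by edgeR's test, and DESeq2 called 0 members. By edgeR 2 members and 806 of 11040 genes had an unadjusted p under 0.05. FAS had medians of 18.8 scaled CPM in ovoid and 8.63 in tubular discs (log2 fold change 0.75, SE 0.34, adjusted p = 0.676), and BAX of 43.4 and 33.6 (0.28, SE 0.13, adjusted p = 0.679). Both pairs of ranges overlapped. The FAS value was 0.04 with cow as a block and 0.61 without ED BASAL replicate 12, the disc lacking disc transcripts, and the BAX value was 0.18 with cow as a block. GADD45B (0.43, SE 0.24), BIRC3 (-0.31, SE 0.20) and CFLAR (0.45, SE 0.31) followed.

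Between 9 ovoid and 17 tubular EX libraries, the guardian BCL2L1 and its partner BAD were higher and the scaffold APAF1 lower in ovoid embryos. These were 3 of 27 members, where 11.4% of 11880 genes were called (5.94% higher and 5.41% lower), so the share among members was close to the background. By edgeR 12 members had an unadjusted p under 0.05, as had 3966 of 11880 genes. DESeq2 called 2 members, BCL2L1 and APAF1, where it called 8.4% of genes. BCL2L1 (chromosome 13, 61766805 to 61817383) had a lowest, median and highest value of 51.1, 64.1 and 73.2 scaled CPM in ovoid and 31.98, 48.7 and 70.9 in tubular EX (log2 fold change 0.42, SE 0.10, adjusted p = 0.0153). BAD (chromosome 29, 43190200 to 43201983) had 9.49, 13.3 and 27.01 against 7.66, 9.60 and 17.2 (0.56, SE 0.16, adjusted p = 0.0307). APAF1 (chromosome 5, 63125170 to 63207075) had 2.35, 9.98 and 13.5 against 4.61, 14.1 and 16.4 (-0.85, SE 0.27, adjusted p = 0.0463). All 3 pairs of ranges overlapped. BIRC3 (-0.44, SE 0.16, adjusted p = 0.0626) and BAX (0.45, SE 0.17, adjusted p = 0.0696) came next, and the BAX value was 0.06 with mark 2 as a term.

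Shape moved with mark 2 and with lane. Mark 2 was on 5 of 9 ovoid and 1 tubular EX library, and 4 of those ovoid libraries held the lowest ovoid APAF1 values. With mark 2 as a term 0 members were called, at 0.40 (SE 0.12) for BCL2L1, 0.33 (SE 0.17) for BAD and -0.36 (SE 0.25) for APAF1. Without the libraries with mark 2 also 0 were called, at 0.49 (SE 0.14), 0.44 (SE 0.16) and -0.29 (SE 0.15). With lane as a term 0 were called, at 0.33 (SE 0.12), 0.48 (SE 0.19) and -0.94 (SE 0.34). With the recipient cow as a block 0 were called, at 0.41 (SE 0.15), 0.69 (SE 0.23) and -1.06 (SE 0.36). Each of the 3 members kept its direction in these fits.

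Within lane 3 (5 ovoid, 3 tubular) the difference of mean log2(scaled CPM + 0.5), ovoid minus tubular, was 0.16 for BCL2L1, 0.28 for BAD and -1.37 for APAF1. Within lane 4 (3 ovoid, 9 tubular) it was 0.36, 0.55 and -0.51, and among libraries without mark 2 (4 ovoid, 15 tubular) 0.41, 0.36 and -0.33. Leaving out cow 07, 66 or 813 left 0 calls and leaving out cow 12 left 1, while leaving out cow 72 gave 9 and cow 13 gave 15. The share of all genes called in these refits is not given here, so the counts show only how calls moved. The summed maternal immune and blood markers (7 of 8 in the table) spanned 6.66 to 32.97 scaled CPM in ovoid and 4.87 to 30.3 in tubular EX, with medians of 17.5 and 7.99, so they were higher in ovoid EX by median. PTPRC and HBB were at 0 in all EX libraries, while ALAS2, CD68 and CD14 had EX medians of 3.15, 3.48 and 2.53. Their part in these differences was not tested.

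**Figure D4:**
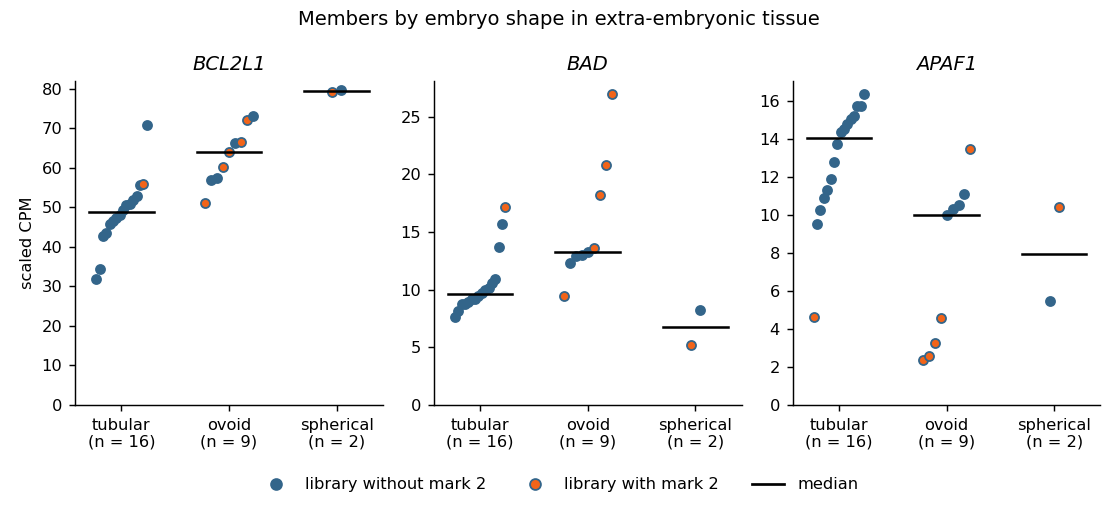
Scaled CPM of BCL2L1, BAD and APAF1 in each EX library by embryo shape, with orange fill for libraries that carry mark 2 and lines at the medians. Ovoid medians are 64.1, 13.3 and 9.98 and tubular medians 48.7, 9.60 and 14.1, and the lowest APAF1 values are those of 4 of the 5 ovoid libraries with mark 2 and, among tubular ones, of the 1 with mark 2.

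The split of calls over all genes moved with the scaling, from 706 higher and 643 lower in ovoid EX to 1253 and 290 on library totals and 642 and 434 with DESeq2's size factors, and DESeq2 itself gave 367 and 630. On library totals 5 members were higher and 0 lower, among them BCL2L1 and BAD. Of other p53 targets 2 of 24 were higher in ovoid EX, GTSE1 and PLK3, and 1 was lower, CCNG2. Of other BCL2 relatives 0 of 7 were higher and 1 was lower, BNIP3L, and of other death receptor genes 1 of 8 was higher, TNFRSF21, and 0 lower. Over all genes 5.94% were higher and 5.41% lower, and no list was tested against these shares.

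Spherical EX was sequenced from 2 embryos, both HIGH PA and both in lane 1, with 340016 and 1068407 reads, and they came from cows 12 and 25 while the ovoid HIGH PA embryos came from cows 07 and 72. Shape cannot be told apart from lane or cow here. Mark 2 was on ovoid replicates 1, 3 and 6 and on spherical replicate 10, and its part in this comparison was not tested. IFNT2, the trophoblast signal that maintains pregnancy, was at 230.5 and 44.3 scaled CPM in the spherical libraries, against a median of 3014 over all EX libraries. The other trophectoderm markers went both ways. PPARG was also below its EX median in both spherical libraries, while GATA2, TFAP2A and ELF3 were above theirs. The 10 markers summed spanned 16948 to 26869 in spherical and 17214 to 27103 in ovoid HIGH PA EX. In the spherical libraries KRT8 and KRT18 made up most of the sum, at 11359 and 13839 in replicate 9 and 7327 and 8276 in replicate 10. The sums therefore say little of the other markers. Against 4 ovoid HIGH PA embryos, 0 of 27 members passed edgeR's test, where 0.118% of 11043 genes were called (0.0996% higher and 0.0181% lower). Its unadjusted p was under 0.05 for 10 members and for 1998 of 11043 genes. DESeq2 called 3 members, MDM2 (adjusted p = 0.0055) and BIRC3 (adjusted p = 0.0249), which were higher, and GADD45A (adjusted p = 0.00882), which was lower; over all genes DESeq2 called 2.85%.

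MDM2 (chromosome 5, 45178134 to 45203567), which marks p53 for degradation and is itself induced by p53, was at 302 and 98.2 scaled CPM in the spherical embryos, from 110 and 113 reads. In the ovoid embryos it was at 31.98, 47.1, 70.4 and 72.6, all below the spherical ones (log2 fold change 1.85, SE 0.42, adjusted p = 0.104 by edgeR). Without the embryo at 302 the log2 fold change was 0.84. Tubular HIGH PA EX reached 97.2, in replicate 7. BIRC3 was at 27.4 and 28.7 against 9.73 to 13.0 (1.29, SE 0.31, adjusted p = 0.104). BAK1 was at 19.2 and 20.0 against 6.75 to 9.98 (1.20, SE 0.37, adjusted p = 0.160). Of these, BIRC3 rested on 10 and 33 reads and BAK1 on 7 and 23 in the spherical libraries.

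GADD45A was lower, at 49.4 and 15.6 scaled CPM in spherical against 74.9 to 126 in ovoid embryos (-1.74, SE 0.45, adjusted p = 0.118); without the embryo at 15.6 the value was -0.97, and without the other -2.64. BID was at 27.4 and 51.3 against 63.3 to 132 (-1.11, SE 0.35, adjusted p = 0.163), with -1.71 without the embryo at 51.3. Another spherical HIGH PA embryo, from cow 66, was sequenced undissected and entered no comparison. Its MDM2 (75.5), BIRC3 (24.1) and BAK1 (22.7) lay above the ovoid EX values and its BID (62.8) below them. Its GADD45A (99.6) lay within the ovoid range. The groups did not overlap for 14 of 27 members, 8 higher and 6 lower in spherical embryos, where 27.8% of genes showed this. Beside the 5 above these were SESN2, ZMAT3, BCL2L1, CASP9 and CFLAR, which were higher, and GADD45G, BAD, DIABLO and FADD, which were lower. They were chosen for naming after their values were seen. In the spherical libraries CFLAR rested on 3 and 7 reads, BAD on 3 and 6 and GADD45G on 0 and 7. ZMAT3 rested on 6 and 15, CASP9 on 7 and 12, SESN2 on 7 and 30 and GADD45A on 18 and 18. BID rested on 10 and 59, DIABLO on 15 and 61, FADD on 15 and 47 and BCL2L1 on 29 and 91. CDKN1A was at 132 and 33.02 against 19.8 to 84.2, so its groups overlapped (0.99, SE 0.62). Of the further pathway genes, 0 of 60 passed and 12 had an unadjusted p under 0.05 by edgeR, against 1998 of 11043 genes tested.

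**Figure D5:**
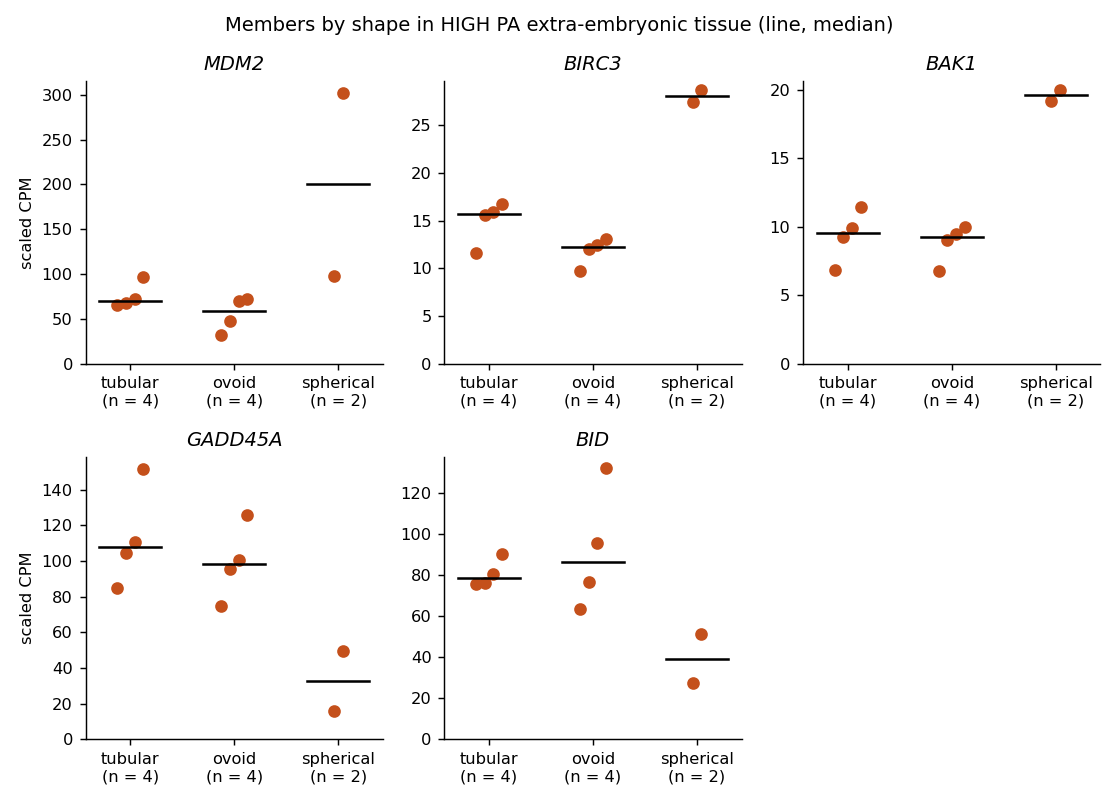
Scaled CPM of the 5 members of lowest p in the 10 HIGH PA libraries of EX by embryo shape, with lines at the medians. Both spherical libraries lie above all ovoid ones for MDM2, BIRC3 and BAK1 and below them for GADD45A and BID.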

How the data were processed

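The authors deposited a table of raw counts, the total and the uniquely placed exon reads per gene and library, per the file headers. Libraries were stranded mRNA libraries read as 50-base pairs, 12 to a lane, per the labels' protocols. The submitters' processing notes name build UMD3.1 and DESeq2 1.10.1. For the aligner and its settings: not given in the sources used here. Gene positions and exon lengths are other columns of the deposited table. The 35 members and all lists were chosen with earlier results of these data known.

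Total exon reads were fitted with edgeR 4.0.16 in R 4.3.3 (TMM, filterByExpr, quasi-likelihood test, Benjamini-Hochberg over all genes tested, threshold 0.05). EX versus ED used the embryo as a block, because the titles give both parts of an embryo. Media were fitted within a tissue with sex, and shape with medium and sex, so the fits within EX left out 1 spherical library without a labelled sex. Spherical and ovoid embryos were compared in the 10 HIGH PA libraries of EX. SE is the log2 fold change divided by the square root of F. No 2 libraries were identical. The 2 libraries under 10000 reads stayed in the fits, but no scaled CPM is given for them. TMM factors ran from 0.61 to 1.22 (medians of 1.1 in ED and 0.944 in EX). Within a group, p-values measure the spread between embryos, some of which shared a cow.

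In each comparison every member past the threshold was named and, where fewer than 5 passed, the 5 of lowest p. Alternatives were DESeq2 1.42.0, its size factors, no filter, unique reads, blocks for cow and flush (limma 3.58.1) and leaving out libraries or cows. Library totals, lane, mark 2, the limit of 300000 reads and the spread without 1 library were chosen after seeing the data. The scripts were tested on simulated data. Some results of a further pathway list are not reported here.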

Additional observations from a re-analysis of the deposited data

Results flagged for a closer look

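Single libraries far from the rest of their group were found in 13 of 75 groups of a gene tested. The nominal rate of the rule is about 1 in 20. Its rate over all genes is not given here and several of these values share 1 library of few reads. No excess among members is therefore drawn from the count. In HIGH PA discs, CDKN1A was at 129 scaled CPM in replicate 2 (the nearest other disc was at 43.5), APAF1 at 4.75 in replicate 1 (nearest 9.67) and BAK1 at 1.24 in replicate 3 (nearest 12.3). In replicate 5, the disc of 119116 reads, CASP8 was at 27.5 (nearest 3.31) and CFLAR at 20.6 (nearest 10.3). In CONTROL EX, BID was at 81.7 (nearest 65.0) and CASP8 at 6.36 (nearest 0.87) in replicate 4, the 1 ovoid CONTROL embryo, and CASP9 at 11.8 (nearest 7.95) in replicate 1. In HIGH PA EX, spherical replicate 9, with 340016 reads, stood apart for MDM2 at 302 (nearest 98.2), CASP9 at 19.2 (nearest 11.4), BCL2L11 at 5.49 (nearest 2.18) and TNFRSF10D at 13.7 (nearest 0.698), and replicate 3 for FADD at 117 (nearest 77.5).

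The 2 undissected HIGH PA embryos entered no comparison. All CONTROL libraries came from cow 813 and were tubular but for 1 ovoid embryo. Medium, cow and the mixing of both parts therefore cannot be told apart here. The undissected embryos both came from cow 66 and lane 3, and 1 was spherical and 1 ovoid. In both of them 4 of 28 members lay above every CONTROL library of either tissue, where 8.57% of 12291 genes did: CDKN1A at 118 and 160 scaled CPM against a highest CONTROL value of 22.8, GADD45A at 99.6 and 132 against 95.2, BAX at 57.5 and 60.5 against 56.0, and BAK1 at 14.0 and 22.7 against 13.1. Another 2 of 28 lay below every CONTROL library, where 6.00% of genes did: GADD45G at 8.14 and 10.7 against a lowest CONTROL value of 17.6, and SESN1 at 1.302 and 5.35 against 6.90.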

How the results depend on the processing

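The count of called members moved by over 1.5 times in 4 of 16 alternatives between tissues and in 14 of 23 for EX by shape; where 0 members were called it stayed at 0 in all but 1 of 138, which says little, since few or no genes at all were called there. Between tissues, 13 calls became 7 in HIGH PA embryos, 4 in CONTROL embryos, 6 in ovoid embryos and 0 with lane as a term; without the replicate block, that is without pairing the parts of an embryo, 12 were called, 11 of them among the 13. The same 13 members were called without libraries under 300000 reads. In CONTROL embryos alone BID (-0.0254), BAD (-0.0732) and CDKN1A (-0.559) turned negative, and BID (-0.0484) did so with the lane term; the cause was not tested. In EX by shape, 3 calls became 5 on library totals, 1 with plate row as a term and 0 with cow as a replicate block, with lane, with mark 2, without the libraries with mark 2, in BASAL embryos and in HIGH PA embryos; leaving out 1 cow gave 0 to 15. For most of these fits the share of all genes called is not given here, so the counts show only how calls moved. Spherical against ovoid gave 3 with DESeq2. With cow as a block CFLAR turned to -0.0739 in ED by shape. With the flush as a correlated block (limma), APAF1 in EX by shape had an adjusted p of 0.0527 and BAX one of 0.0368. For CASP8 in EX of HIGH PA over BASAL, leaving out 1 cow gave -1.12 (cow 72) to 0.0522 (cow 25). Depth limits the scarce members most: CASP8 rested on 25 reads in its second highest disc.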
